A study of Homo sapiens with 6 samples.

Results

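The 7 receptors described here, FLT3, KIT, CSF1R, CSF3R, CSF2RB, IL6R and IFNGR1, are cell-surface proteins through which myeloid cells and their progenitors sense growth factors and cytokines. They were chosen by name and not by any measured value, and all 7 were present in both annotations used, among 20136 protein-coding genes on GRCh37 and 19671 on GRCh38. For each receptor, every peak of H3K27Ac and H3K4me3 that touched the gene or the 20 kb on either side of it was collected from 4 peak lists. In control cells, IL6R and IFNGR1 carried strong peaks of both marks at their promoters. CSF3R and CSF2RB carried both marks in weaker peaks, FLT3 and CSF1R had a promoter peak of H3K27Ac but none listed for H3K4me3, and KIT had no promoter peak of either mark.

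FLT3, KIT and CSF1R are type III receptor tyrosine kinases, which pair on binding FLT3 ligand, stem cell factor or CSF-1 and then phosphorylate themselves. FLT3 and KIT are typical of early progenitors, whereas CSF1R is typical of monocytes and macrophages. CSF3R is the G-CSF receptor of the neutrophil lineage, and CSF2RB is the beta chain shared by the receptors for GM-CSF, IL-3 and IL-5. IL6R is the alpha chain that binds IL-6. CSF3R, CSF2RB and IL6R have no kinase of their own, and their receptor complexes signal through JAK kinases to STAT proteins. IFNGR1, the ligand-binding chain of the interferon gamma receptor, also signals through JAK kinases and is present on most cell types. Acetylation of lysine 27 of histone H3 (H3K27Ac) is found at active promoters and enhancers, and trimethylation of lysine 4 (H3K4me3) is found mainly at active promoters.

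The study asked how these marks change in AML cells after knockout of mutant NPM1 (mtNPM1). OCI-AML3, an established human AML line with heterozygous mutations in NPM1 and DNMT3A and a homozygous NRAS mutation, received either a control guide RNA, sgNeg, or sgNpm1A, a guide RNA directed at mtNPM1. The labels give 3 days of culture and the study's text a longer time for the ChIP-Seq. By their labels, both groups are the same line and differ by the guide RNA, and the peak lists do not show the edit itself. A guide RNA and mark had 1 library, and the 2 input libraries were not analysed here. With 1 library per group there is no spread between replicates and no test, so that every difference below compares a pair of libraries. A lower value in a pool of cells could mean fewer marked cells or less of the mark per cell, and these cannot be told apart.

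The H3K27Ac lists held 327715 peaks in sgNeg and 317059 in sgNpm1A, and the H3K4me3 lists held 353628 and 106641. Fold enrichment, the pileup over the background expected in the same library, refers to the summit of an H3K4me3 peak and to the average over an H3K27Ac peak, and is scaled within a list. Peaks are called higher or lower by this value. A peak was therefore placed by its percentile, the share of its own list with an equal or lower fold enrichment, and a promoter without a peak was given 0. Strong peaks were those with a q-value under 1e-05, of which the H3K27Ac lists held 9422 and 2879 and the H3K4me3 lists 81307 and 14777. Coordinates are GRCh37 for H3K27Ac and GRCh38 for H3K4me3. All labels name the same line, but the deposited names of the lists carry a tag that is not the same for both marks, and what it stands for is not stated. Whether it refers to a cell line is therefore unknown, and the study also used OCI-AML2, a line with wild-type NPM1. Statements that set H3K27Ac and H3K4me3 beside each other rely on the labels. As a check of the cell type, 11 of 14 myeloid markers had a strong H3K27Ac promoter peak in sgNeg, led by AZU1, SPI1 and CEBPA, against 0 of 6 T cell, 0 of 6 B cell, 0 of 7 erythroid, 0 of 5 epithelial and 0 of 5 fibroblast markers. For H3K4me3 the counts were 10 of 14 myeloid, 1 of 6 T cell, 1 of 6 B cell, 0 of 7 erythroid, 2 of 5 epithelial and 0 of 5 fibroblast markers. Over all genes, a strong sgNeg promoter peak was at 35.6% for H3K27Ac and at 52.6% for H3K4me3. Since OCI-AML2 and OCI-AML3 are both AML lines, these markers cannot tell which line a list came from. In sgNpm1A, a strong H3K27Ac promoter peak was at 1 of 14 myeloid markers and at none of the other 5 lists, beside 0.904% of all genes. A strong sgNpm1A H3K4me3 promoter peak was at 0 of 14 myeloid markers, at 1 of 6 T cell markers (CD3D, 94.2 percentile), at 1 of 6 B cell markers (CD79B, 94.2 percentile) and at none of the erythroid, epithelial and fibroblast markers, beside 1.56%.

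A promoter here is the 1 kb on either side of an annotated transcript start. The GRCh37 annotation has more starts per gene, many of them internal, than the GRCh38 table of RefSeq starts, so that an H3K27Ac promoter peak is more easily counted than an H3K4me3 promoter peak. In sgNeg, 6 of the 7 receptors had an H3K27Ac promoter peak, all but KIT, beside 79.2% of all protein-coding genes. Strong H3K27Ac promoter peaks were found at 2 of 7, IL6R and IFNGR1, beside 35.6% of all genes. An H3K4me3 promoter peak was present at 4 of 7, CSF3R, CSF2RB, IL6R and IFNGR1, beside 67.5%, and a strong one again at IL6R and IFNGR1, 2 of 7 beside 52.6%. Strong peaks of both marks were thus at 2 of 7 receptors beside 32.4% of the genes found in both annotations, peaks of any strength of both marks at 4 of 7 beside 64.5%, and neither mark at 1 of 7, KIT, beside 16.6%. With 7 genes, these counts do not set the receptors apart from genes at large, and the differences lay among the receptors themselves. The sgNeg H3K27Ac promoter percentile equaled or exceeded that of 57.9% of genes for FLT3, 47.5% for CSF1R, 49.8% for CSF3R and 52.1% for CSF2RB. For IL6R and IFNGR1 this share was 92.4% and 72.8%. For H3K4me3 it was 47.4% for CSF3R, 42.0% for CSF2RB, 92.4% for IL6R and 64.9% for IFNGR1.

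**Figure D1:**
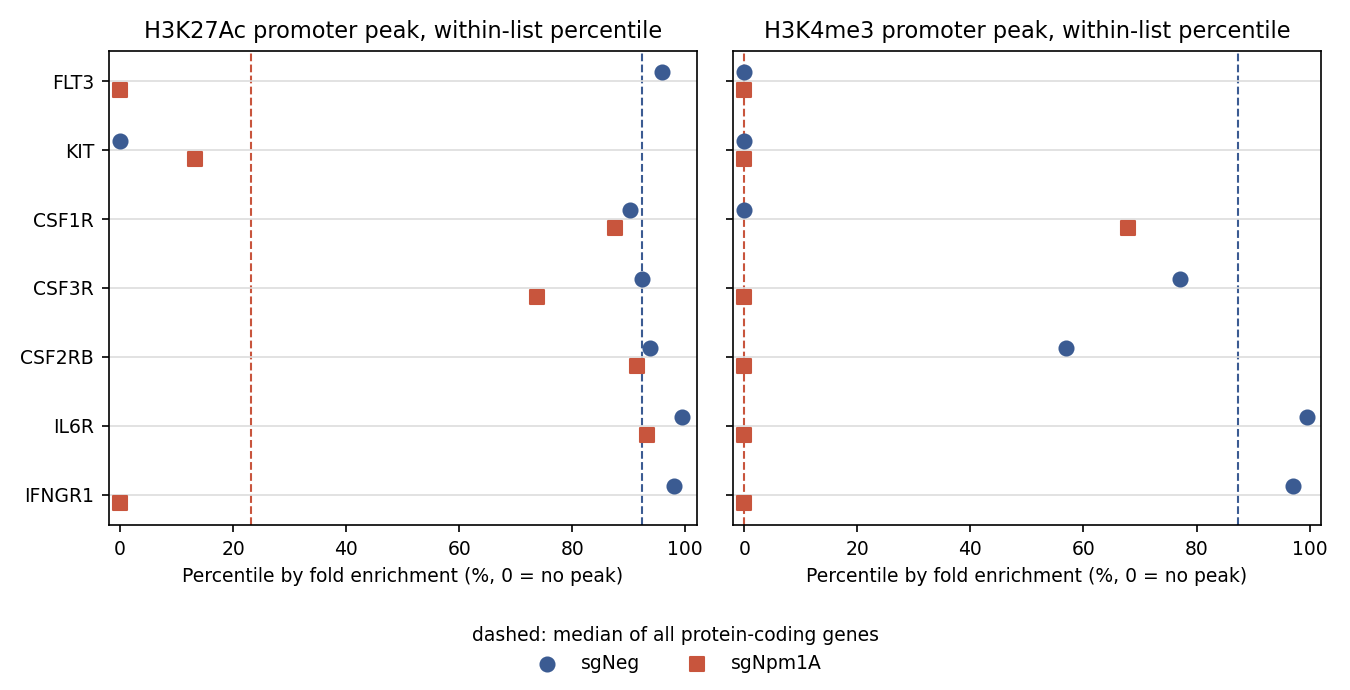
Within-list percentile by fold enrichment (x axis, percent, 0 where no peak was listed) of the highest promoter peak of each receptor for H3K27Ac (left) and H3K4me3 (right), in sgNeg (blue circles) and sgNpm1A (red squares), 1 library each. Dashed lines are the medians of all protein-coding genes, 92.4 and 23.2 for H3K27Ac and 87.3 and 0 for H3K4me3. IL6R and IFNGR1 lie furthest to the right for both marks in sgNeg.

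The promoters themselves differ in base composition, and the bases before some of the starts are shown because CpG-rich promoters are the class at which H3K4me3 is usually found. The sequences are those of RefSeq on GRCh38.p14, from 250 bases before the transcript start and ending where an annotated exon begins, written 5′ to 3′ on the strand of the gene with each CG in capitals.
FLT3, chr13:28100593-28100826, minus strand: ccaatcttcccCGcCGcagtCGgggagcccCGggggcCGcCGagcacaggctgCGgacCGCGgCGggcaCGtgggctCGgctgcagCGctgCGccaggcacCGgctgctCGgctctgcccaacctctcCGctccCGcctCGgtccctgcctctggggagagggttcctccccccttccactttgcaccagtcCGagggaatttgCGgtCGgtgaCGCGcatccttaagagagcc
KIT, chr4:54657707-54657888, plus strand: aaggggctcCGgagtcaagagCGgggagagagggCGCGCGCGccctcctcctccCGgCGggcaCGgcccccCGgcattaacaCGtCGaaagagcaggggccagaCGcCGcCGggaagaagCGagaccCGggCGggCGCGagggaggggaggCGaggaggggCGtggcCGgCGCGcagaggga
IL6R, chr1:154405093-154405192, plus strand: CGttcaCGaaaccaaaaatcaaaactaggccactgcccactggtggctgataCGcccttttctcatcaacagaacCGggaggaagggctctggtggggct
IFNGR1, chr6:137219450-137219635, minus strand: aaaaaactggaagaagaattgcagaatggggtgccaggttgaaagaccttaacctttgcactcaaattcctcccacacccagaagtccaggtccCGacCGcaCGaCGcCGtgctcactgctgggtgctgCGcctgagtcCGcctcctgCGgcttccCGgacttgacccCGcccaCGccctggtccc
FLT3 and KIT had 24 CG in 234 bases and 25 CG in 182 bases, IFNGR1 had 11 in 186, IL6R had 4 in 100 and the stretch before the inner CSF1R start had 2 in 197.

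CpG content was computed over the whole window of 300 bases, 250 before and 50 after a start, which the promoter table gives for 6 of the 7 receptors in 9 windows (CSF2RB has none there). A window counted as CpG-rich with at least 50% G and C and an observed over expected CpG ratio of at least 0.6. KIT (ratio 0.952), IL6R (0.882), FLT3 (0.83) and IFNGR1 (0.783 and 0.782 at its inner and outer starts) were CpG-rich. The inner and outer starts of CSF3R (0.306 and 0.204) and of CSF1R (0.183 and 0.278) were not. Of 13315 CpG-rich windows of coding genes, 80.0% had a sgNeg H3K4me3 peak within 1 kb of their start and 69.6% a strong one, against 41.8% and 20.9% of 8883 other windows. FLT3 and KIT were therefore CpG-rich promoters without the H3K4me3 peak that most of their class carried, and CSF3R was a CpG-poor promoter with one.

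**Figure D2:**
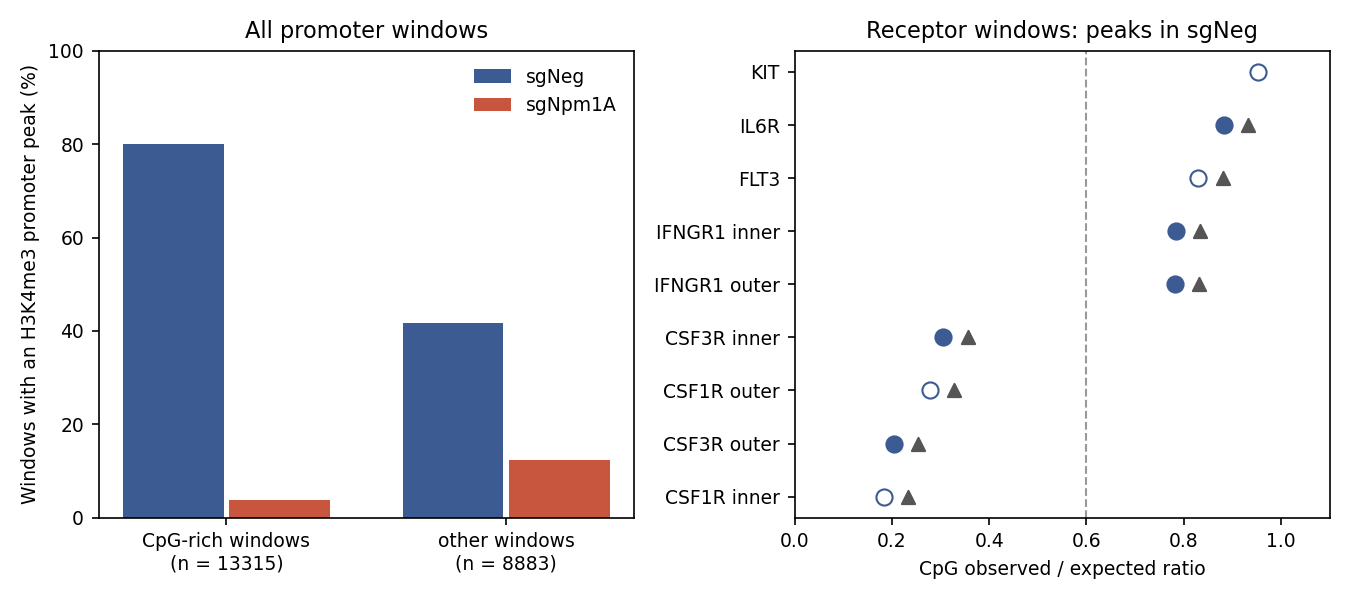
Left, share of CpG-rich and other promoter windows (n as given) with an H3K4me3 peak within 1 kb of the start (y axis, percent) in sgNeg (blue) and sgNpm1A (red). Right, observed over expected CpG ratio (x axis) of the 9 receptor windows, with a filled circle where sgNeg had an H3K4me3 promoter peak, an open circle where it had none, and a triangle, drawn to the right of the circle, where sgNeg had an H3K27Ac promoter peak; the dashed line is the limit of 0.6. KIT has the highest ratio and no peak of either mark.

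In sgNpm1A the relation was the other way round, with an H3K4me3 peak at 3.88% of CpG-rich and 12.4% of other windows. Such a peak was strong at 0.533% and 2.02%. The only receptor with a sgNpm1A H3K4me3 promoter peak, CSF1R, was of the CpG-poor class. This was 1 of 7 receptors beside 9.17% of all genes, and 0 with peaks at least 300 bp wide. A single gene does not bear on the relation between the classes.

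Short motifs of 4 kinds were searched on both strands of the same windows: the PU.1 core GAGGAAGT, its part AGGAAGT, the C/EBP letters TTNNGNAA and the RUNX letters TGTGGT. They were present in 2.64%, 8.01%, 31.4% and 11.3% of all 22198 windows of coding genes. Neither PU.1 form was in any receptor window. The inner CSF1R start and the outer CSF3R start held C/EBP and RUNX matches, and their bases are given with the matches in capitals, since both genes are myeloid genes with CpG-poor starts.
CSF1R, chr5:150086608-150086804, minus strand: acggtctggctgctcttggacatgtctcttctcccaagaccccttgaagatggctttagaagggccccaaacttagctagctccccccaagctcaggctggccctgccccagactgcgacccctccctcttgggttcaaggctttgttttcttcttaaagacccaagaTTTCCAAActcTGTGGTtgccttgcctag
CSF3R, chr1:36483315-36483564, minus strand: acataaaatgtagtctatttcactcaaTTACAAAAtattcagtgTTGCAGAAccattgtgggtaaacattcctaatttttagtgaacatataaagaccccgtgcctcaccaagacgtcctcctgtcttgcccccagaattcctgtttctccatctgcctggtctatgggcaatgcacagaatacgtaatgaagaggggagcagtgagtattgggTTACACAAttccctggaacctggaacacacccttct
At CSF1R the C/EBP letters, read on the opposite strand, lay 82 to 75 bases before the start and the RUNX letters 71 to 66 bases before it. At CSF3R there were 3 C/EBP matches before the outer start, and the RUNX match lay after it. The windows of IL6R, of the inner CSF3R start and of the outer IFNGR1 start held C/EBP letters as well, and those of FLT3 and KIT held none of the 4. A match of letters is a description and not a binding site. Other forms of these motifs were not searched, so that a missing match does not mean that a promoter lacks a site.

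FLT3 (ENSG00000122025 on GRCh37, where its record spans chr13:28577411-28674729, minus strand) had a sgNeg H3K27Ac peak at its start, chr13:28673980-28675198, from 469 bp before to 749 bp after it. That peak was 1219 bp wide with a fold enrichment of 3.91 (q-value 1.63e-04), which placed it at the 95.9 percentile, rank 13362. In the same list, the median promoter percentile of all protein-coding genes was 92.4. No sgNpm1A peak lay within 1 kb of a FLT3 start. A missing peak means a level under the lowest fold enrichment listed, about 2.54 in sgNeg and 2.66 in sgNpm1A for H3K27Ac, and not an absent mark. Over the region, sgNeg listed 21 H3K27Ac peaks and sgNpm1A 8, which covered 9.22% and 2.06% of it. The widest sgNeg peak, chr13:28667414-28669326, was 1913 bp wide and lay 5.40 kb inside the gene, and the highest distal peak, chr13:28605465-28606524, had a fold enrichment of 3.47. For H3K4me3, sgNeg had 12 peaks and sgNpm1A 1, none of them within 1 kb of the start. The peak closest to the start lay 9.50 kb upstream of it, at chr13:28110080-28110458, and the highest was a peak of 3.95 within the gene, 55.3 kb from the start. FLT3 was thus a receptor whose start carried H3K27Ac but no listed H3K4me3 in control cells.

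KIT (ENSG00000157404, chr4:55523434-55606949, plus strand) had the lowest share of its region covered by either mark in sgNeg, although IFNGR1 had fewer H3K4me3 peaks. Its region held 8 sgNeg H3K27Ac peaks that covered 2.64%, and the highest, chr4:55574596-55575287, with a fold enrichment of 3.08, lay 51.2 kb inside the gene. In sgNpm1A there were 13 peaks that covered 6.16%, a ratio of 2.34, and KIT was the only receptor with more H3K27Ac covered in sgNpm1A. With peaks at a q-value under 0.01 alone this ratio was 0, since no sgNpm1A peak of the region passed that limit. The only KIT promoter peak, chr4:55597431-55597934 in sgNpm1A, lay at the start of a short transcript 74.0 kb inside the gene, with a fold enrichment of 2.71 (13.2 percentile). A pair of weak sgNpm1A peaks lay 1.26 kb and 3.35 kb upstream of the record start. For H3K4me3, sgNeg had 6 peaks and sgNpm1A 3, all within the gene. The sgNeg peak closest to the start, chr4:54660072-54660275, began 2.12 kb after it with a fold enrichment of 3.12, and each of the 3 sgNpm1A peaks overlapped a sgNeg peak.

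CSF1R (ENSG00000182578, chr5:149432854-149492935, minus strand) has an outer start at the edge of its record and an inner start, chr5:149466117 on GRCh37 by a unique match of the RefSeq window, 26818 bp further in. H3K27Ac was spread over the whole gene, with 36 sgNeg peaks that covered 42.5% of the region and 27 sgNpm1A peaks that covered 31.2%. At the outer start, the sgNeg peak chr5:149492405-149493237 had a fold enrichment of 2.90 (66.0 percentile), and a sgNpm1A peak of 2.98 (55.9 percentile) lay 637 bp upstream of the start, within 1 kb of a start of the neighboring PDGFRB as well. Next to the inner start, both lists had a peak, chr5:149464947-149466077 of 3.24 in sgNeg (87.6 percentile) and chr5:149465597-149465809 of 3.39 in sgNpm1A (87.5 percentile), although it was 1131 bp wide in sgNeg and 213 bp in sgNpm1A. Of the RefSeq starts with an H3K27Ac peak in both lists, the inner CSF1R start had the closest percentiles. Just inside it, the highest sgNeg peak of the region, chr5:149458617-149463647, was 5031 bp wide with a fold enrichment of 3.86. The widest, chr5:149433116-149439431, was 6316 bp wide with 3.34 (90.3 percentile), lay at a short transcript at the 3′ end of the gene, and set the CSF1R promoter percentile. The other sgNeg promoter peaks of CSF1R lay at internal starts and were 3719, 2970 and 140 bp wide with 2.97, 2.90 and 2.54, and those of sgNpm1A were 3210, 1612 and 2135 bp wide with 3.04, 2.88 and 2.81.

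The highest sgNpm1A H3K27Ac peak of that region, chr5:149507717-149509380, with a fold enrichment of 3.93, lay in the upstream flank, which holds starts of PDGFRB, the beta receptor for platelet-derived growth factor. For H3K4me3, CSF1R had 33 sgNeg peaks, 9 of them strong, and none lay within 1 kb of a RefSeq start. With 2 kb on either side of a start there was 1, chr5:150114972-150115206, of 3.12. In sgNpm1A there were 12 peaks, 1 of them strong. The sgNpm1A peak chr5:150113419-150113714, 54 bp upstream of the outer start and 296 bp wide, had a fold enrichment of 3.82 (67.9 percentile), or 14 fragments at its summit. This was the only H3K4me3 promoter peak of any receptor in sgNpm1A, where the lowest pileup listed was 10 fragments and 11 in sgNeg.

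CSF3R (ENSG00000119535, chr1:36931644-36948879, minus strand) had a broad sgNeg H3K27Ac peak over its 5′ starts, chr1:36945844-36954180, which reached from 5301 bp before to 3035 bp after the record start. It was 8337 bp wide, wider than 99.6% of the list, with a fold enrichment of 3.45 (q-value 1.38e-03, 92.3 percentile). In sgNpm1A no peak covered the outermost starts, and the nearest, chr1:36945663-36947521, began 1.36 kb inside the gene with 2.97 (54.7 percentile). The sgNpm1A value of 73.7 for CSF3R came from a peak 7.42 kb inside the gene, at internal transcript starts. For H3K4me3, the sgNeg peak chr1:36482362-36482797 lay 517 bp after the outer start with a fold enrichment of 3.74, 17 fragments (q-value 4.05e-05, 77.0 percentile). The sgNpm1A list had no H3K4me3 peak in the whole region, against 15 in sgNeg. The highest sgNeg peaks in the region were not at CSF3R but at the start of MRPS15, a gene for a mitochondrial ribosome protein, with 4.52 for H3K27Ac at chr1:36929006-36930746 and 7.90 for H3K4me3 at chr1:36463457-36464288. A smaller H3K27Ac peak of 3.79 lay at a start of OSCP1.

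CSF2RB (ENSG00000100368, chr22:37309670-37336481, plus strand) had a sgNeg H3K27Ac peak that began 157 bp after its start, chr22:37309827-37310413, with a fold enrichment of 3.58 (q-value 5.81e-04, 93.8 percentile). In sgNpm1A the peak at this start, chr22:37310222-37310413, was 192 bp wide with 2.78 (25.5 percentile). A broader sgNpm1A peak, chr22:37317035-37319890, 2856 bp wide with 3.51 (91.4 percentile), lay 7.37 kb inside the gene, where sgNeg had 3 separate peaks of 3.28, 2.62 and 2.79 at the same internal starts. The direction of the CSF2RB difference thus depended on the measure. Counting only peaks that cover a start, or ranking by width, the sgNpm1A percentile was higher by 68.3 and 17.7 points, where ranking by fold enrichment it was lower by 2.46. The sgNeg peak at the record start does not cover that start, and so the first of these counts leaves it out. With the start of the gene record alone, the sgNpm1A minus sgNeg difference was −68.3 points. The widest sgNeg peak of the region, chr22:37295860-37299369, 3510 bp wide with 2.87, lay 10.3 kb upstream of the gene. For H3K4me3, the sgNeg peak chr22:36913832-36914136 lay 204 bp after the start with 3.33 and 15 fragments (56.9 percentile), and sgNpm1A had none there. The covered H3K4me3 length was nearly equal, 5.12% of the region in sgNeg and 4.82% in sgNpm1A, and within the gene body alone it was 1.31 times as long in sgNpm1A.

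IL6R (ENSG00000160712, chr1:154377669-154441926, plus strand) had the strongest promoter peaks of the 7 receptors. The sgNeg H3K27Ac peak over its start, chr1:154373846-154384771, was 10926 bp wide with a fold enrichment of 6.71 (q-value 1.47e-13, 99.5 percentile, rank 1582). The sgNpm1A peak at the same start, chr1:154377050-154378608, was 1559 bp wide with 3.44 (89.3 percentile). Another sgNpm1A peak, chr1:154406750-154409256, at transcript starts 29.1 kb inside the gene, was somewhat higher with 3.59 (93.3 percentile) and was the highest IL6R promoter peak there. The sgNeg H3K4me3 peak, chr1:154405577-154406518, began 234 bp after the RefSeq start, was 942 bp wide and had a fold enrichment of 10.2, 48 fragments (q-value 2.00e-32, 99.5 percentile, rank 1618). The sgNpm1A list had no H3K4me3 peak within 1 kb of that start.

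The IL6R gene body was also the most densely marked. Its region held 38 H3K27Ac peaks in each list, which covered 57.6% in sgNeg and 31.1% in sgNpm1A, so that the peaks were equal in number and narrower in sgNpm1A. Of these, 25 sgNeg peaks and 34 sgNpm1A peaks overlapped a peak of the other list. The remaining sgNeg promoter peaks lay at internal starts, the widest being chr1:154399223-154409186, 9964 bp wide with 3.44 (92.1 percentile). After the peak over the main start, the highest sgNeg peaks were chr1:154388556-154392807 with 4.23 and chr1:154393291-154397011 with 4.03, which lay 10.9 kb and 15.6 kb inside the gene. For H3K4me3 there were 54 sgNeg peaks, 20 of them strong, and 10 sgNpm1A peaks, 2 of them strong. The highest distal sgNeg peak, chr1:154435693-154436171, had 5.41, and the sgNpm1A list had a peak of 4.32 at the same place. The high coverage was shared by the surroundings, since the 1 Mb around IL6R was covered to 41.8% by H3K27Ac and 20.8% by H3K4me3 in sgNeg.

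IFNGR1 (ENSG00000027697, chr6:137518620-137540586, minus strand) had a compact pattern. The sgNeg H3K27Ac peak chr6:137539481-137541405 touched the promoters of all 16 annotated starts and was 1925 bp wide with a fold enrichment of 4.84 (q-value 2.02e-07, 98.0 percentile, rank 6415). The sgNeg H3K4me3 peak chr6:137218671-137219290 was 620 bp wide with 5.82, 27 fragments (q-value 2.13e-12, 97.0 percentile). It was the only H3K4me3 promoter peak of a receptor that covered a start itself, since those of CSF3R, CSF2RB and IL6R lay 204 to 517 bp downstream of the outermost start. No peak of either mark lay at an IFNGR1 promoter in sgNpm1A. Upstream of the gene, sgNeg had a run of H3K27Ac peaks, led by chr6:137543524-137546436, 2.94 kb upstream with 3.64, and including the widest, chr6:137549347-137552712, 3366 bp wide with 2.87, while the gene body beyond the promoter peak held no H3K27Ac peak in either list. The region was covered to 19.2% by H3K27Ac in sgNeg and 2.44% in sgNpm1A, and to 1.76% and 0 by H3K4me3.

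**Figure D3:**
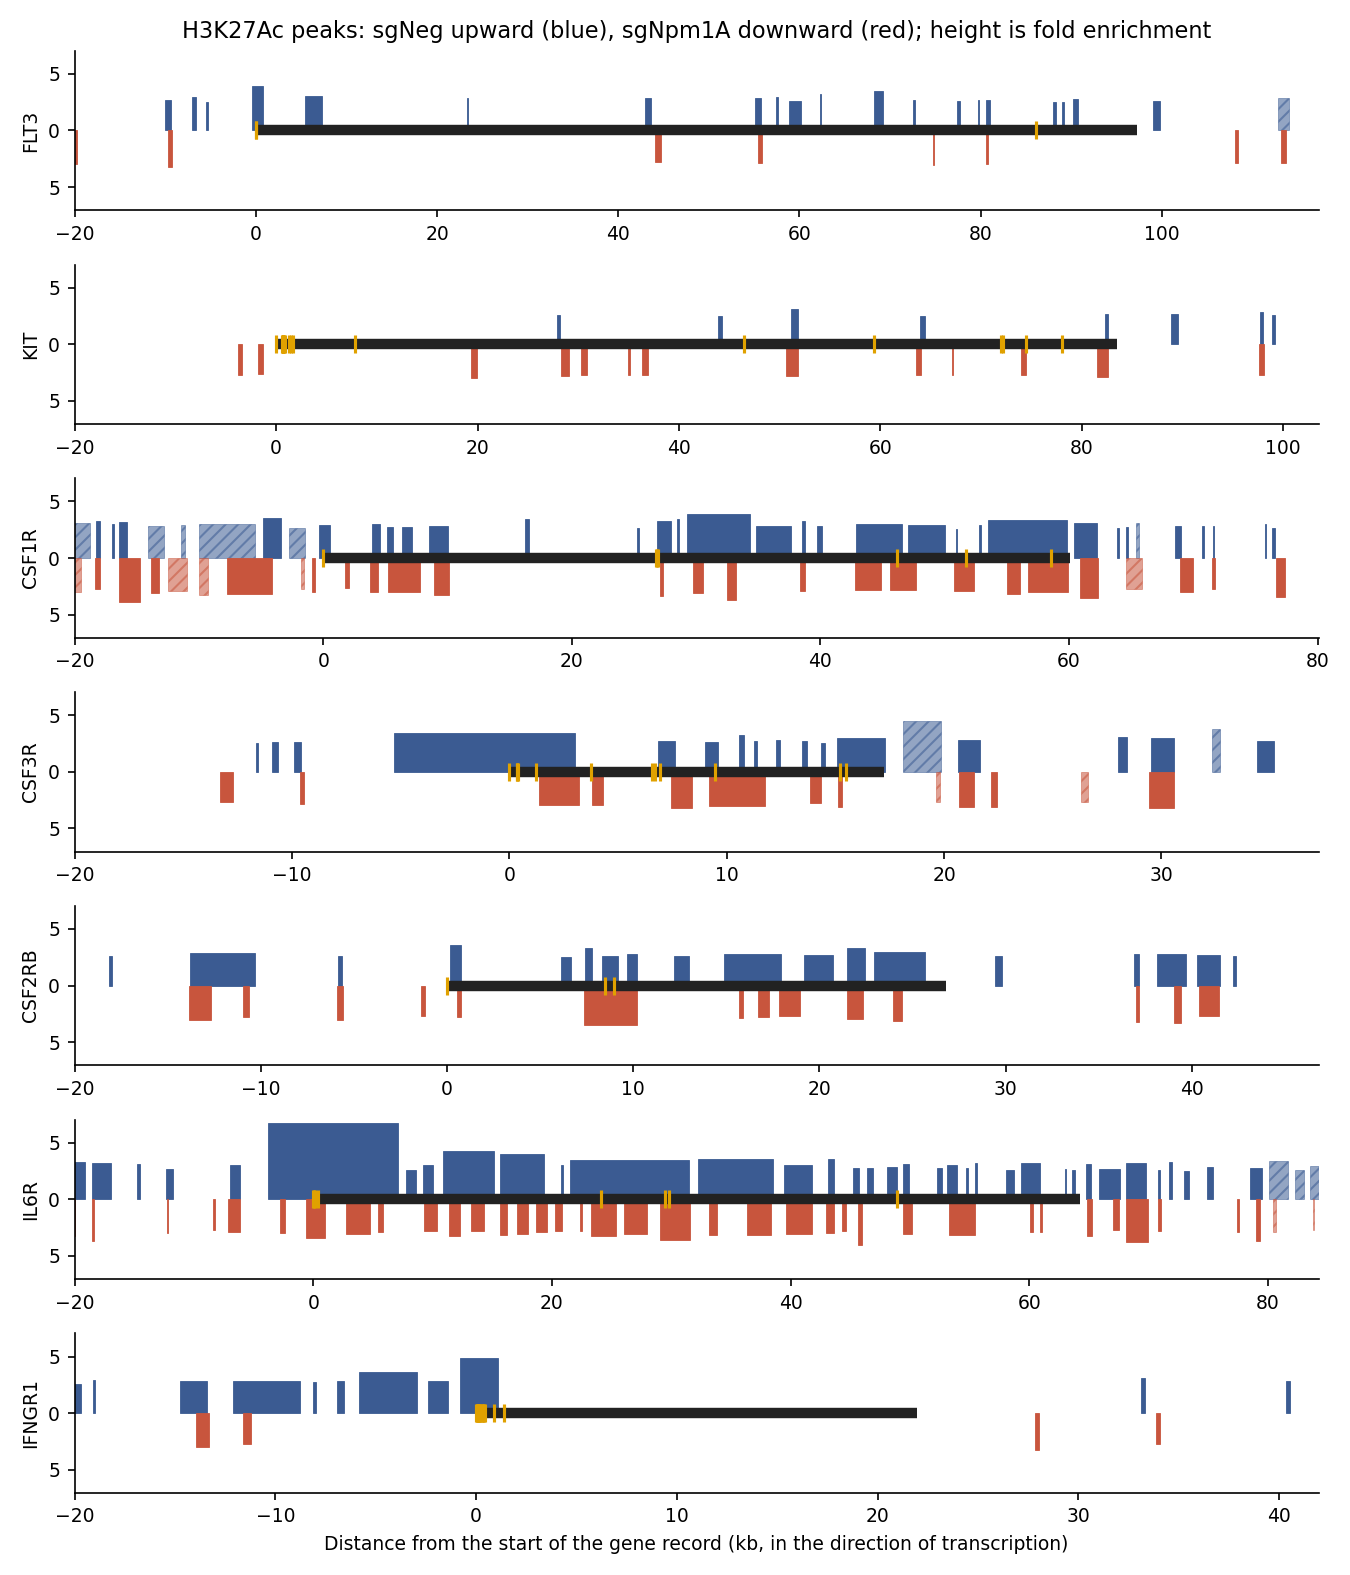
H3K27Ac peaks of each receptor region by distance from the start of the gene record (x axis, kb, in the direction of transcription; scales differ between panels). Peaks of sgNeg point up in blue and those of sgNpm1A down in red, with fold enrichment as height (scaled within each list); black bars are the genes, yellow ticks annotated starts, and hatched peaks lie at starts of neighboring genes. The widest are the 10926 bp and 9964 bp peaks at IL6R, followed by the 8337 bp peak at CSF3R.

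**Figure D4:**
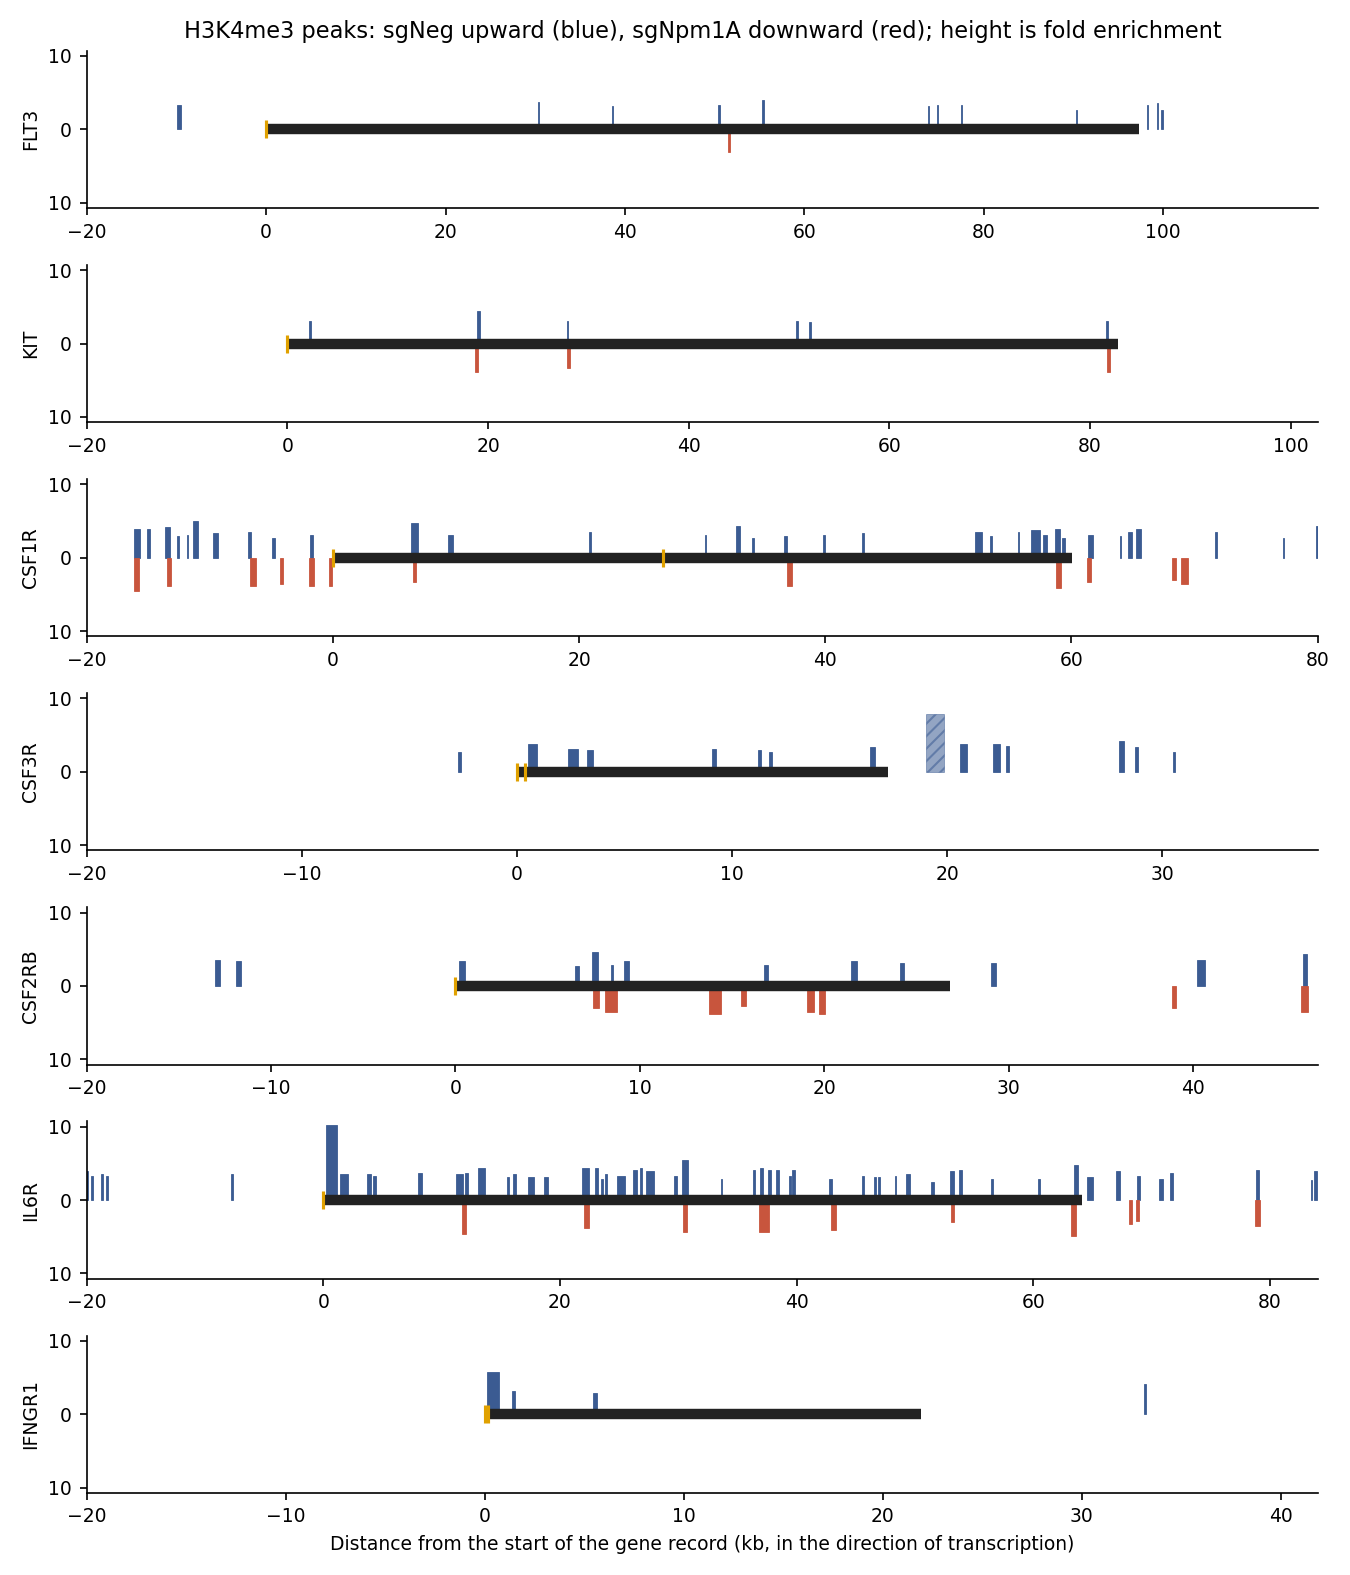
H3K4me3 peaks of the same regions, drawn in the same way, with the starts of the RefSeq annotation. In sgNeg the highest peaks are those just after the IL6R start (10.2) and at MRPS15 in the CSF3R panel (7.90, hatched), and sgNpm1A has no peak in the CSF3R and IFNGR1 panels.

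Promoter peaks of the receptors were fewer and weaker in sgNpm1A, as were those of the other genes. H3K27Ac promoter peaks were at 5 of 7 receptors in sgNpm1A beside 57.1% of all genes, and strong ones at 0 of 7 beside 0.904%. H3K4me3 promoter peaks were at 1 of 7 beside 9.17%, and strong ones at 0 of 7 beside 1.56%. The H3K27Ac promoter percentile was lower in sgNpm1A for 6 of 7, with KIT the exception, beside 78.1% of genes with a peak in either list. The sgNpm1A minus sgNeg difference was −95.9 points for FLT3 and −98.0 for IFNGR1, which had no listed promoter peak in sgNpm1A, −18.5 for CSF3R, −6.17 for IL6R, −2.76 for CSF1R and −2.46 for CSF2RB. These values take the highest peak at any annotated start, which can be another start in each list. With the start of the gene record alone, the difference was −92.3 for CSF3R, −68.3 for CSF2RB, −10.2 for IL6R and −10.1 for CSF1R. Of 5 receptors with an H3K4me3 promoter peak in either list, 4 were lower in sgNpm1A beside 93.9% of genes, and CSF1R was higher. The directions were those of most genes in these lists. The sgNpm1A H3K4me3 library also had a lower background, 2.93 fragments against 3.81 in sgNeg, and a wider narrowest peak, 245 bp against 110 bp, and the part of this in the lower H3K4me3 values was not tested. Read totals are not part of the lists, and these backgrounds alone do not give the size of the difference in sequencing depth.

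The 7 H3K27Ac regions, 651.2 kb in all, were covered over 169 kb in sgNeg and 95.6 kb in sgNpm1A, a ratio of 0.566, while the ratio was 0.884 for the whole list and 0.722 for the median gene region. The H3K4me3 ratio was 0.351, from 36.9 kb and 13.0 kb, beside 0.591 for the whole list and 0.342 for the median gene region. With the 20000 peaks of lowest p-value of each list the ratios were 0.195 for H3K27Ac and 0.812 for H3K4me3. Less H3K27Ac was covered in sgNpm1A for 6 of 7 regions, all but KIT, beside 67.1% of gene regions, and less H3K4me3 for 7 of 7 beside 94.0%. Of the 118 sgNpm1A H3K27Ac peaks in the regions, 76.3% overlapped a sgNeg peak, and 54.7% of the 150 sgNeg peaks overlapped a sgNpm1A peak. For H3K4me3 these shares were 67.6% of 34 sgNpm1A peaks and 18.2% of 137 sgNeg peaks. The same shares over the whole lists were not computed. The overlaps given here and for single receptors therefore do not set these regions apart from other peaks.

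**Figure D5:**
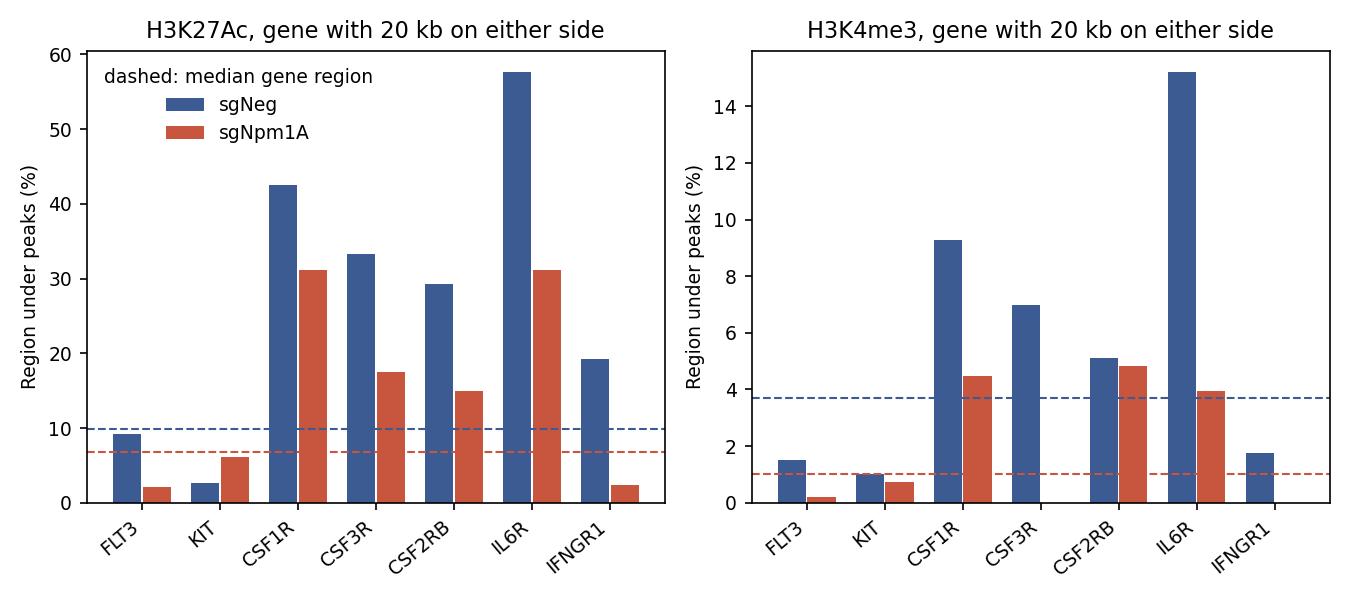
Share of each receptor region (gene with 20 kb on either side) under peaks (y axis, percent) in sgNeg (blue) and sgNpm1A (red), 1 library each, for H3K27Ac (left) and H3K4me3 (right, on a smaller scale). Dashed lines are the medians over the regions of all protein-coding genes, 9.82% and 6.75% for H3K27Ac and 3.71% and 1.01% for H3K4me3. IL6R is the most covered region for both marks in sgNeg, and KIT alone has more H3K27Ac in sgNpm1A.

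Other genes of the same pathways were described from 3 lists. Of 32 other myeloid cytokine and growth factor receptors, 29 had a sgNeg H3K27Ac promoter peak, beside 79.2% of all genes, and 14 (43.8%) a strong one, beside 35.6%. For H3K4me3, 23 had a promoter peak, beside 67.5%, and 18 (56.2%) a strong one, beside 52.6%. Highest were IFNGR2, the partner chain of IFNGR1 (99.9 percentile for H3K27Ac), LEPR and TGFBR2, and for H3K4me3 the tumor necrosis factor receptors TNFRSF1A and TNFRSF1B and the chemokine receptor CXCR4. IFNGR2 had no sgNpm1A H3K27Ac promoter peak, as at IFNGR1. Such a peak was at 20 of the 32, beside 57.1% of all genes, so that its absence is not particular to this pair. In sgNpm1A the H3K27Ac percentile was higher for 2 of the 32, IL18R1 (36.7 in sgNeg, 92.5 in sgNpm1A) and AXL (71.3 and 87.6), and lower for 27, beside 78.1% of genes with a peak in either list. The remaining genes of the 32 had no H3K27Ac promoter peak in either list, and genes of that kind are not in the 78.1%. The median percentile was 96.4 in sgNeg and 39.1 in sgNpm1A, beside 92.4 and 23.2 for all genes.

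Of 10 ligands, 8 had a sgNeg H3K27Ac promoter peak and 2 an H3K4me3 promoter peak, beside 79.2% and 67.5% of all genes. A strong peak of each mark was found at 1 of 10, beside 35.6% and 52.6%, and both were at IL5, of which an annotated start lies beside a start of RAD50, a DNA repair gene. FLT3LG, the ligand of FLT3, followed with an H3K27Ac percentile of 95.5 and no H3K4me3 promoter peak, and IL3 with 80.8 and 42.4. In sgNpm1A the H3K27Ac percentile was higher for IL34, a ligand of CSF1R (46.6 in sgNeg, 91.5 in sgNpm1A), CSF2 (79.5 and 81.9) and IL6 (0 and 11.8). It was lower for 6 of the 10, beside 78.1% of genes with a peak in either list, and the remaining ligand had none in either. The H3K4me3 percentile was higher for CSF3, which encodes G-CSF (0 and 86.1), and CSF2 (0 and 53.1). It was lower for 2, beside 93.9% of genes with a peak in either list, and most ligands had no H3K4me3 promoter peak in either. No ligand had a strong sgNpm1A promoter peak of either mark.

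Of 35 signal transducers and inhibitors, all 35 had a sgNeg H3K27Ac promoter peak, beside 79.2% of all genes, and 25 a strong one, beside 35.6%. An H3K4me3 promoter peak was at 33, beside 67.5%, and a strong one at 32, beside 52.6%. PTPN6, a phosphatase that dampens receptor signaling, had percentiles of 99.91 for H3K27Ac and 99.8 for H3K4me3, and the adaptor GRB2 had 99.9 and 99.95. The Ras pathway inhibitor SPRY2 (99.9 for H3K27Ac) and the SRC family kinase LYN (99.8 for H3K4me3) completed the leading genes. In sgNpm1A the H3K27Ac percentile was lower for 32 of 35, beside 78.1% of genes with a peak in either list, and higher for JAK3 (64.0 in sgNeg, 88.8 in sgNpm1A), STAT5A (75.7 and 95.9) and CBLB (96.1 and 99.1), a ubiquitin ligase that removes activated receptors. STAT5A was also the only gene of this list with a higher H3K4me3 percentile, 0 and 16.4.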

How the data were processed

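ChIP-Seq (ChIPmentation: crosslinked chromatin was precipitated and tagmented on the beads with Tn5) was performed by the authors in OCI-AML3 cells, 1 library per guide RNA and mark. The submitters' processing notes name bcl2fastq 2.17, Trimmomatic 0.33, Bowtie 1.1.2, MACS2 2.1.0 and deepTools with hg38. The calling limit, the use of the inputs and any shift for Tn5 are not given in the sources used here. The H3K27Ac lists are on GRCh37, since a chromosome 1 peak ends at 249218478, beyond the hg38 chromosome. The H3K4me3 lists are on GRCh38, since a chromosome 17 peak ends at 83201881, beyond the hg19 chromosome. Fold enrichment, a ratio computed by the authors of observed to expected pileup, refers to the summit of an H3K4me3 peak and to the average of an H3K27Ac peak. Each deposited peak also has a −log10 p-value and a −log10 q-value. The deposited score was not used. Read totals are not part of the lists, so that the depth of the H3K27Ac libraries is unknown. For H3K4me3, fold steps gave a background of 3.81 fragments in sgNeg and 2.93 in sgNpm1A, and the narrowest peaks were 110 and 245 bp wide, so that lists of unequal depth were compared. By how much the H3K4me3 depths differ is unknown.

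Groups were taken from the sample titles. Autosomes 1 to 22 and both sex chromosomes entered, and 1 bp in common counted as an overlap. Starts were 146404 of GENCODE version 44 on GRCh37 and 26004 of RefSeq on GRCh38, where 3830 genes had the start of the gene record alone. The 9 receptor windows matched GRCh37 at 1 place each. Overlap code was tested on simulated peaks. Python 3.11.15, pandas 2.3.3, numpy 2.4.6 and matplotlib 3.10.9 were used. No test was made, with 1 library per group. Named were all 7 receptors, neighbors with a start in a region, and of each pathway list the 3 genes highest in sgNeg and any higher in sgNpm1A. The rule also took the promoter peaks of the receptors and the 3 highest and the widest peak of each region, list and mark, of which the leading ones are given singly and the others within the counts and coverage. The receptors, lists and measures were chosen with earlier results of these data known. Alternatives were limits on q-value, fold enrichment, width and list length, other promoter and region sizes, other starts and other rankings.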

Additional observations from a re-analysis of the deposited data

How the results depend on the processing

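No paired analysis was possible because each group holds 1 library and no test was made. The H3K4me3 lists differ in depth, and a peak that is not listed has a level under the calling limit of its list. Of the recomputed counts and ratios, 64 stayed within 1.5 times the reported value and 30 did not; the cause was not tested beyond what a limit itself removes. With peaks at a q-value under 1e-05 alone, H3K27Ac promoter peaks were at 2 receptors in sgNeg and 0 in sgNpm1A, H3K4me3 promoter peaks at 2 and 0, and 2 receptors were lower in sgNpm1A for each mark. The covered-length ratios were then 0 for H3K27Ac and 0.0888 for H3K4me3. A fold enrichment of at least 4 gave the same counts (2, 0, 2 and 0, with 2 and 2 lower) and an H3K27Ac ratio of 0.0160. With the 20000 peaks of lowest p-value of each list, the sgNpm1A H3K27Ac count was 1, the H3K4me3 counts were 2 and 0 with 2 lower, and the ratios were 0.195 and 0.812. Strong promoter peaks in sgNeg numbered 6 for H3K27Ac and 4 for H3K4me3 at a q-value under 0.01, and 1 for H3K27Ac at 1e-08. With the start of the gene record alone, 3 receptors had a sgNpm1A H3K27Ac promoter peak. When a peak had to cover the start itself, H3K4me3 promoter peaks were at 1 receptor in sgNeg (1 strong) and 0 in sgNpm1A, with 1 lower. With peaks at least 300 bp wide, the sgNpm1A H3K4me3 count was 0.

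Single receptors changed direction in 9 cases. For CSF2RB, the H3K27Ac percentile difference was 68.3 points where a peak had to cover the start and 17.7 by width. Its covered-length ratio was 2.64 for H3K27Ac at a q-value under 0.01, and for H3K4me3 1.95 with peaks at least 300 bp wide, 1.16 with 10 kb on either side and 1.31 in the gene body. The KIT ratio was 0 for H3K27Ac at a q-value under 0.01 and 1.12 for H3K4me3 with peaks at least 300 bp wide. The IL6R H3K4me3 ratio was 1.38 among the 20000 peaks of lowest p-value. A further setting, chosen after seeing the data, placed the RefSeq starts on GRCh37 by sequence match, and all 4 H3K27Ac counts stayed within 1.5 times, with 6 receptors in sgNeg and 4 in sgNpm1A.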
